A study of Mus musculus with 2 samples.

Results

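T and NK lymphocytes were taken from 2 single-cell RNA libraries of mouse liver by a rule on a few genes. A barcode counted as a cell with at least 500 UMIs (unique molecular identifiers, each standing for 1 captured RNA molecule), 250 or more genes seen, and no more than 20% of its UMIs from mitochondrial genes. A cell was a member when it held at least 3 UMIs over the 6 genes Cd3e, Cd3d, Cd3g, Trac, Trbc1 and Trbc2 (the T gate), or at least 2 UMIs over the 4 genes Ncr1, Klrb1c, Klre1 and Eomes (the NK gate). It also had to hold 0 UMIs of the B cell genes Cd79a and Ms4a1 and fewer than 30 UMIs of the neutrophil genes S100a8 and S100a9. The rule found 86 members among 3035 cells, 16 of them in Control and 70 in PCB126. Members were thus chosen by the UMIs of these genes, which are given below only as a description.

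The Control library came from 1 mouse given peanut oil, the vehicle, although its treatment label reads untreated. The PCB126 library came from 1 mouse given PCB126, an industrial biphenyl with dioxin-like action through the aryl hydrocarbon receptor (AHR), at 20 µg per kg and day. Both mice were C57/BL6, carried the age label postnatal day 21, ate the same synthetic diet, were exposed for 5 weeks and fasted for 12 hours before the liver was taken. The protocol calls the dosing a single gavage while the dose is given per day, and the labels do not settle this, nor how the age label and the exposure time fit together. After enzyme digestion of the liver, centrifugation and a strainer took out hepatocytes and red cells were lysed, so shares refer to the cells that remained. With 1 mouse and 1 library in each group there was no test of the treatment, mouse and treatment cannot be told apart, and every interval below is an exact 95% interval for counting error only.

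T cells recognise peptides or lipids through a receptor made of an alpha and a beta chain, or of a gamma and a delta chain, which signals through the CD3 proteins. CD8 T cells kill infected cells, CD4 T cells direct other cells through cytokines, and NK cells and type 1 innate lymphoid cells (ILC1) kill or secrete interferon gamma without a rearranged receptor. The liver sinusoids are known for a large share of resident and innate-like lymphocytes, among them ILC1, natural killer T (NKT) cells and CXCR6-bearing memory T cells, which patrol close to the endothelium. AHR is a ligand-activated transcription factor, Cyp1a1 is its best known target, and it is known to act in several lymphocyte subsets.

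The members were read to a like depth in both libraries. Their median was 6979 UMIs in Control (3198 to 23821) and 6863 in PCB126 (2471 to 46183), with 520.5 and 514 genes per cell after each cell was thinned to 1000 UMIs. In all, 135215 UMIs stood behind the Control members and 635329 behind those of PCB126. The median mitochondrial share was 7.48% in Control members and 10.9% in PCB126 members, and the corresponding values over all cells were 7.59% and 12.2%. The matrices had 3 barcodes in common, but the libraries shared 0 barcodes among cells.

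The members carried the defining genes of the label. Trac, the constant region of the receptor alpha chain, was seen in 11 of 16 Control members and 48 of 70 PCB126 members, at 444 and 373 CPM (UMIs per 1000000 UMIs summed over the members). Cd3e was seen in 10 and 51 members, Trbc2 in 12 and 58, Klrb1c in 5 and 31, and Ncr1 in 3 and 12. Cd3e had 0 UMIs in the 312 and 646 endothelial cells and the 814 and 85 neutrophils of the same libraries. The median depths of these cells were 6561, 6064.5, 3691.5 and 3958 UMIs. They were taken from outside both gates, so by definition each held fewer than 3 UMIs of the T-gate genes. Members held a median of 28.5 and 23.5 UMIs of the 6 T-gate genes, and 0 members sat exactly on either cut-off. Just outside lay 1 cell per library with 2 T-gate UMIs and 7 cells per library with 1 NK-gate UMI.

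Not every member that passed the T gate showed a full receptor. In Control, the 3 T-gate cells without Cd4, Cd8a or Cd8b1 UMIs held no Cd3e, Cd3d, Cd3g or Trac, and passed on Trbc1 and Trbc2 alone. These 3 cells and the 2 NK-only cells each held at least 5 UMIs of Tyrobp and Fcer1g, adaptors of innate receptors, and none of the other 11 Control members did. In PCB126, 16 members lacked both Cd3e and Trac, and 14 of these held at least 5 Tyrobp and Fcer1g UMIs, as did 6 of the members with Cd3e or Trac. Neither Cd3e nor Trac was seen in 3 of the 14 T-gate cells of Control and 9 of the 63 of PCB126, and at this depth a gene can be missed in a cell that expresses it. These tallies were made after the values had been seen.

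Genes of other cells were low in the members, but unevenly so. Csf1r, C1qa, C1qb and C1qc of macrophages, and Pax5 and Ebf1 of B cells, were at 0 in both libraries. The erythroid list summed to 762 CPM in Control and 47.2 CPM in PCB126, the neutrophil list to 207 and 37.8 CPM, and the hepatocyte list to 340 and 56.7 CPM. The endothelial list was higher in PCB126, at 452 against 133 CPM, with 126 UMIs in 1 cell and at least 10 UMIs in 4 cells. The monocyte and macrophage list (747 and 206 CPM) was Ly6c2 for 98 of 101 and 128 of 131 UMIs, a gene that memory CD8 T cells also express. The B cell list (88.7 and 296 CPM) was Ighm for 180 of 188 UMIs in PCB126, with 3 cells of the Cd4 group at 32 to 36 UMIs each. The part of these genes in the differences below was not tested, apart from the values given without such cells.

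Lymphocytes made up 0.848% of the cells of the Control library (16 of 1886, 0.486 to 1.37%) and 6.09% of those of the PCB126 library (70 of 1149, 4.78 to 7.63%). The share was 7.18 times higher in PCB126 (4.13 to 13.2). Control had 814 neutrophils and PCB126 had 85, and with neutrophils left out of the denominator the shares were 1.49% of 1072 cells and 6.58% of 1064. Set against the B cells, of which each library had 63, there were 0.254 members per B cell in Control and 1.11 in PCB126. Per 100 endothelial cells there were 5.13 and 10.8 members, so the size of the difference depended on the cells used as the reference. These other denominators were chosen after the share had been seen. With barcodes of up to 50% mitochondrial UMIs let in, the PCB126 share was 3.59%.

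The make-up of the lymphocytes also differed. Within the T gate, the Cd8 group (at least 1 UMI of Cd8a or Cd8b1, the CD8 co-receptor chains, and none of Cd4) held 10 of the 16 Control members (62.5%, 35.4 to 84.8%) and 14 of the 70 PCB126 members (20%, 11.4 to 31.3%). The Cd4 group (at least 1 UMI of Cd4 and none of the Cd8 genes) held 1 Control member (6.25%, 0.158 to 30.2%) and 17 PCB126 members (24.3%, 14.8 to 36.0%). T-gate cells with neither co-receptor numbered 3 in Control (18.75%) and 32 in PCB126 (45.7%, 33.7 to 58.1%). NK-only cells were 2 (12.5%) and 7 (10%), and no cell held UMIs of both Cd4 and the Cd8 genes. In Control the Cd8 group was the largest, and in PCB126 the cells with neither co-receptor were. Cd4 UMIs are few per cell, and the size of these groups depended on depth. After thinning to 1000 UMIs before the gates the Cd4 group of PCB126 held only 5.77% of the members and the Cd8 group 7.69%. How many cells without a co-receptor UMI at full depth had one that was missed was not tested. Thinning left 69.2% of the PCB126 members without a co-receptor.

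**Figure D1:**
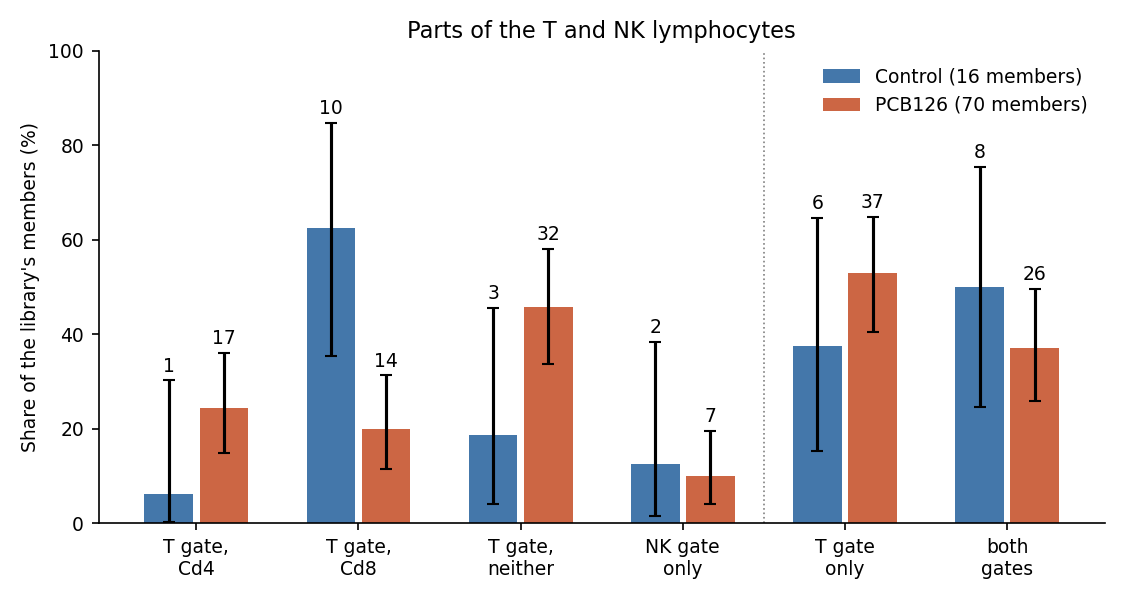
Share of each library's T and NK lymphocytes (y axis, %) in the T-gate groups Cd4, Cd8 and neither co-receptor and in the NK gate only, and, right of the dotted line, in the T gate only and in both gates. Bars are Control (blue, 16 members) and PCB126 (red, 70 members), error bars are exact 95% binomial intervals for counting error, and the numbers are cells. The Cd8 group takes 62.5% of Control and 20% of PCB126 members. Over 7 other settings, thinning and the mitochondrial limit among them, its share ranged from 50 to 80% in Control and from 7.69 to 32% in PCB126.

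Cells that passed both gates held different NK-gate genes in the 2 libraries. Among them 3 of 8 in Control and 6 of 26 in PCB126 had no UMI of the CD3 genes or Trac. Eomes, a transcription factor of NK and memory CD8 T cells, was present in 6 of the 8 Control cells that passed both gates, and in 5 of them no other NK-gate gene was seen. All 5 Cd8 cells among these 8 were of that kind. In PCB126, 26 cells passed both gates, 23 of them with Klrb1c (the NK1.1 antigen), 16 with Klre1, an NK receptor, and 4 with Eomes, and 21 of the 26 had neither co-receptor. Within the Cd8 group Eomes was seen in 7 of 10 Control cells (277 CPM) and 3 of 14 PCB126 cells (55.1 CPM). As a gene of the rule, Eomes is described only.

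The NK-only cells were few and mixed. The 2 Control cells held 3 and 5 Klrb1c UMIs and 0 Eomes UMIs, together with Il7r, the interleukin 7 receptor (5 and 10 UMIs), Cxcr6, a chemokine receptor of liver-resident lymphocytes (1 and 4), and Itga1, an integrin of ILC1 (2 and 1). Xcl1, a chemokine that attracts dendritic cells, was at 8 and 17 UMIs in them. In PCB126, Eomes was found in 2 of the 7 NK-only cells, and these 2 held 44 and 65 UMIs of Gzma (granzyme A), 6 and 7 of Prf1 (perforin) and none of Il7r, Cxcr6 or Itga1. The other 5 held 0 or 1 Gzma UMI and at least 1 Cxcr6 UMI each. Among these 7, the textbook pattern of conventional NK cells, with Eomes and perforin, was thus present in 2 cells. Cxcr6 without Eomes was seen in 5, but these 5 did not share the other ILC1 genes named above. In order of depth from the lowest among them, Il7r was at 0, 0, 1, 14 and 27 UMIs. Itga1 was at 1, 7, 0, 0 and 8 UMIs and Prf1 at 0, 5, 1, 0 and 0. Of these 5, the cell of 9507 UMIs also held 61 endothelial UMIs. Outside the NK-only cells, a PCB126 cell with 3 T-gate and 29 NK-gate UMIs also held Eomes (6 UMIs), Prf1 (10) and Gzma (14).

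Within PCB126, NK-only cells were compared with the 37 cells in the T gate only, across all genes. The adaptor Tyrobp was 225 times higher in NK-only cells (73.4 to 1124), with 58 UMIs in 7 of 7 cells against 3 UMIs in 2 of 37. Fcer1g, another adaptor, was 72.3 times higher (36.8 to 158). The killer lectin-like receptors Klrk1 and Klrd1 were 17.8 and 16.0 times higher, the chemokine Ccl5 3.48 times and the transcription regulator Id2, required by innate lymphoid cells, 2.97 times. The kinase gene Txk and the calcium-binding Efhd2 were 5.50 and 5.98 times higher. On the other side, T-only cells held the cytokine Mif at 528 CPM, at least 5.95-fold above the NK-only cells, which had 0 UMIs, with fold bounds set against 3 counts over the group. The surface antigen Ly6a, the interferon-inducible Ifi27l2a, the chaperone Hspa1b and the ATP synthase gene Atp5j were likewise at 0 in NK-only cells, at least 3.98-fold, 5.29-fold, 4.38-fold and 4.06-fold lower. Gapdh (7.06 times), the nucleolar Npm1 (4.52 times) and the chaperone Hsp90ab1 (4.33 times) were also higher in T-only cells. NK-only cells of PCB126 had a median of 4374 UMIs, T-only cells 7263 and those of the Cd8 group 8638. Dividing cells, of at least 2 Mki67 UMIs, lay among T-only cells and cells that passed both gates, with 0 among the NK-only cells. Their part in these differences was not tested.

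In PCB126 the Cd4 and Cd8 groups differed in further genes besides the co-receptors that define them. The Cd8 group was higher in Klrd1 (8.19 times, 3.87 to 19.9), Ccl5 (2.88 times), the granule protein Nkg7 (2.05 times) and Ms4a4b (1.61 times). Arl4c (2.22 times) and Ptprc, which encodes CD45 (1.48 times), were the other genes named by the rule on that side. The Cd4 group was higher in the long noncoding RNA AW112010 (2.41 times, 1.97 to 2.97), the serpin Serpina3g (3.09 times), Clec2d (2.20 times), the integrin Itgal (2.10 times), Ly6e (2.08 times), the proteoglycan Srgn (2.03 times) and H2-D1 (1.49 times). Klrd1 was seen in 13 of 14 Cd8 cells and 2 of 17 Cd4 cells.

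Several lymphocyte subsets appeared in PCB126 as a few cells each, with 0 cells in Control, where a gene at 0 UMIs in 16 members allows, by 3 counts, a share of cells with a UMI of up to 18.75%. This does not limit the share of cells that express it. Foxp3, the factor that defines regulatory T cells, was found in 4 members, all in the Cd4 group, all with Ikzf2 (Helios) and 3 with the inhibitory receptor Ctla4. Of these 4 cells 2 were among the 3 rich in Ighm, and the part of B cell RNA in them was not tested. Zbtb16 (PLZF), the factor of NKT and other innate-like T cells, was found in 15 of 70 members, 11 with neither co-receptor and 4 in the Cd4 group, and 14 of the 15 carried Cxcr6. It was also seen in 7.59% of the PCB126 endothelial cells and 12.9% of the neutrophils, against 21.4% of the members. After thinning to 1000 UMIs these shares were 1.39%, 1.18% and 10%. Trav11, the variable segment of the invariant NKT receptor, was found in 3 cells, and all 3 carried Zbtb16. Trdc, the delta chain constant region, was found in 5 cells, of which 2 held Cd8a or Cd8b1, and in 0 of the 646 endothelial cells. The interleukin Il4 was seen in 8 members (38 UMIs) and Csf2, which encodes GM-CSF, in 4 (73 UMIs, 57 of them in 1 cell), none of which was in the Cd8 group.

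**Figure D2:**
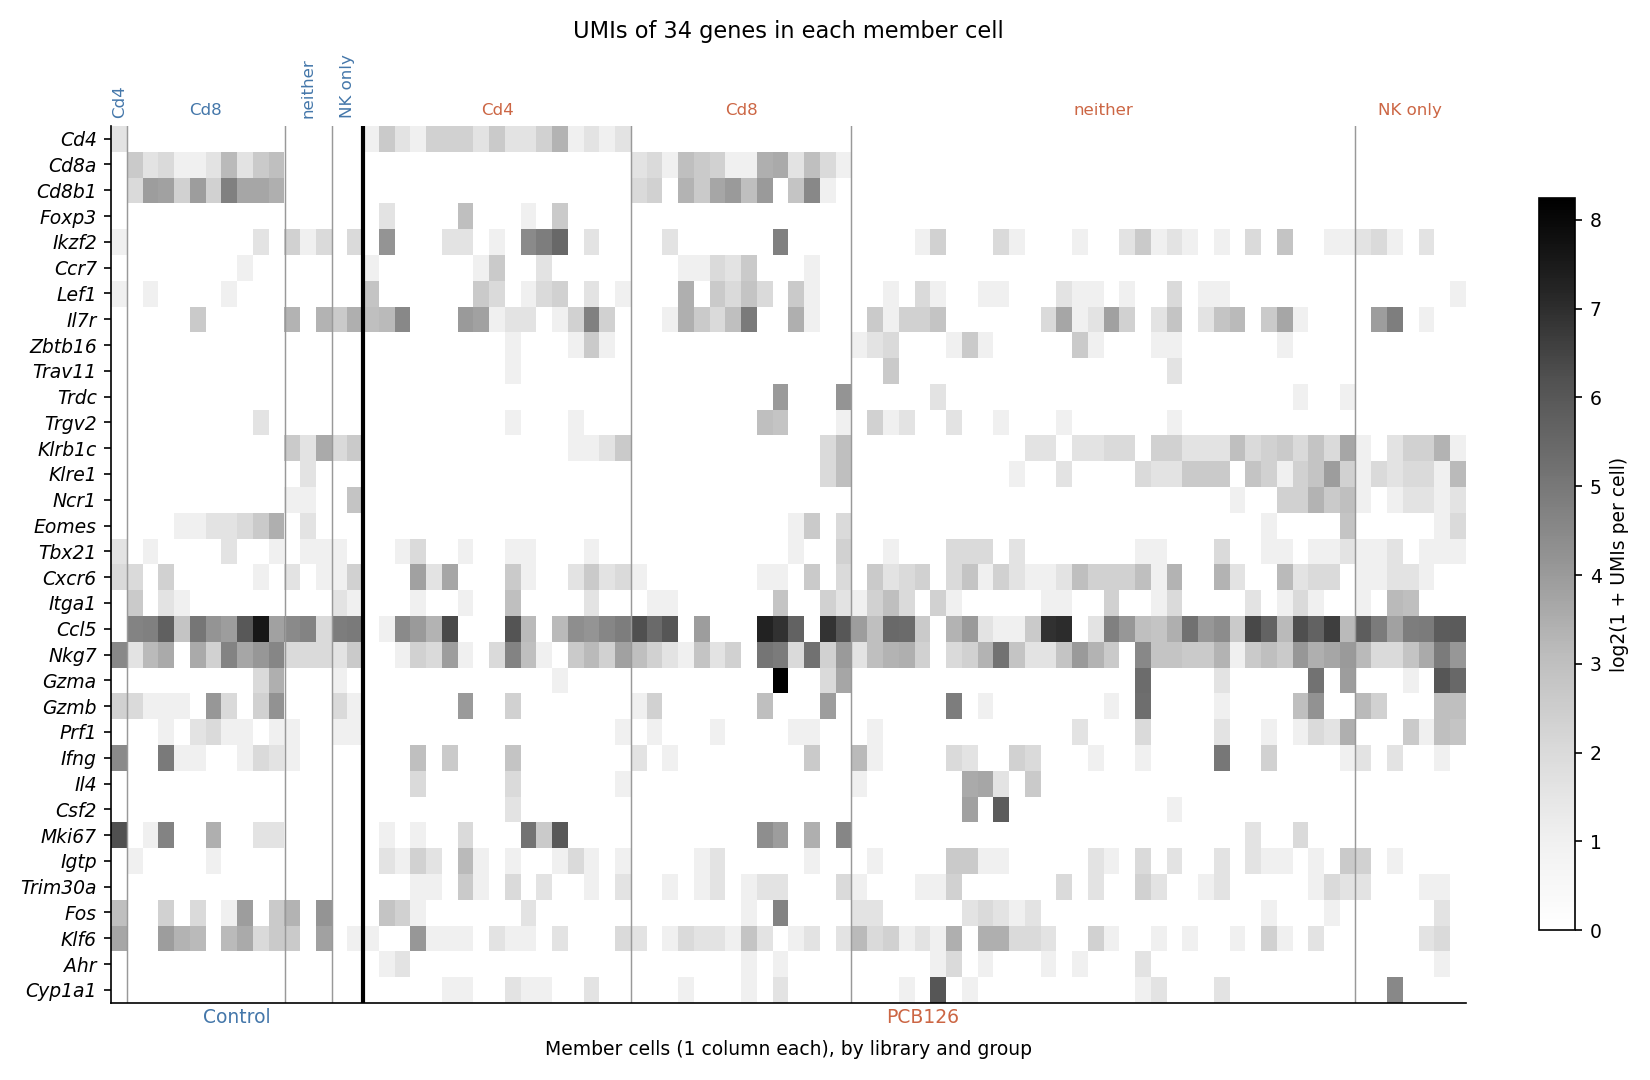
UMIs of 34 genes (rows) in each of the 86 members (1 column per cell), on a grey scale of log2(1 + UMIs per cell), with Control left and PCB126 right of the thick line and the groups Cd4, Cd8, neither co-receptor and NK only divided by thin lines. The genes of the rule and of the groups fill their own blocks by construction. Outside these, Zbtb16 lies in 15 PCB126 columns and 0 Control columns, Klf6 in 11 of 16 Control and 43 of 70 PCB126 columns, and Gzma is darkest in 1 Cd8 column with 302 UMIs.

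Receptor segments were caught in a minority of cells, since the reads start from the 3′ end of the transcript. A Trbv segment was found in 4 of 14 T-gate cells of Control and 23 of 63 of PCB126, spread over 4 and 11 of the 35 Trbv segments in the gene list. The most frequent in PCB126 were Trbv13-2 in 5 cells, Trbv29 in 4 and Trbv3 in 4. More than 1 Trbv segment in a cell was found once in Control and 0 times in PCB126. Trgv2 was found in 12 PCB126 members and 1 Control member.

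Across the members as a whole, 4576 genes had at least 20 UMIs over both libraries. Of these, 9.31% were more than 2 times higher in PCB126 and 8.78% more than 2 times lower, with a median log2 ratio of -0.08 (0.5 counts added to each sum). The sums mix the groups as each library holds them, so a difference in the share of Cd8 cells and a difference within a cell type cannot be told apart in them. Values within the Cd8 group, the only one with 10 or more cells in each library, are therefore set beside them. In the Cd8 group, of 1628 genes, 6.57% were past 2 times higher in PCB126 and 7.92% past 2 times lower.

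The genes named as higher in PCB126 by the rule on size and spread over cells held regulators of T cells and interferon-inducible genes. Trim30a, an interferon-inducible ubiquitin ligase gene, had 59 UMIs in 31 of 70 PCB126 members and 0 in Control, at least 4.19-fold higher. In endothelial cells Trim30a stood at 77.0 CPM in Control and 75.4 in PCB126, in neutrophils at 184 and 221 CPM. Rbpj, the DNA-binding partner of Notch, had 2 and 104 UMIs (11.1 times, 2.99 to 92.6). Fgl2, an immunoregulatory fibrinogen-like protein, had 6 and 122 (4.33 times, 1.93 to 12), and Igbp1, a phosphatase regulator, 1 and 52. Npm1, a nucleolar protein of ribosome assembly, stood at 569 CPM in Control and 1283 in PCB126 (2.25 times, 1.78 to 2.88), and within the Cd8 group at 611 and 1182 CPM. Inpp4b, a lipid phosphatase gene, had 5 and 93 UMIs (3.96 times), and Itm2b was 2.20 times higher.

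For some of the named genes the direction depended on which members were counted. Maf, a factor of innate-like and helper T cells, had 14 and 189 UMIs (2.87 times, 1.67 to 5.36), but within the Cd8 group it had 7 UMIs in Control and 1 in PCB126, a log2 ratio of -3.23. AW112010 was 1.95 times higher in PCB126 over all members (1.62 to 2.37), and in the Cd8 group its log2 ratio was -0.29. Ikzf2 had 14 and 186 UMIs (2.83 times, 1.64 to 5.27), with 117 of the 186 in the Cd4 group, 93 of them in the 3 cells rich in Ighm. In the Cd8 group Ikzf2 had 2 and 28 UMIs, 26 of the 28 in 1 cell. Without members that held other cells' markers its log2 ratio fell from 1.45 to 0.16. Without members of at least 2 Mki67 UMIs, or with cells thinned before the gates, it was -0.27. Maf is also high in the endothelial cells of the PCB126 library (1830 CPM), and its endothelial share in members was not tested.

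The genes named as higher in Control included Cd8b1 (5.32 times, 4.02 to 7.04) and Cd8a (2.92 times, 1.87 to 4.50), which also define the Cd8 group. Within that group Cd8b1 was 2.13 times higher in Control (1.61 to 2.82), and Cd8a stood at 415 and 355 CPM. Klf6, a zinc finger transcription factor gene induced early by stimuli, was 3.22 times higher in Control (2.43 to 4.24), and Tnfaip3, a brake on NF-kappaB signalling, 3.03 times (2.05 to 4.42). S100a6, a calcium-binding protein, stood at 1982 CPM in Control and 806 in PCB126 (2.46 times, 2.11 to 2.86), and 194 of its 512 PCB126 UMIs lay in 1 cell. The heat shock gene Hspa1b was 2.89 times higher in Control, the membrane proteins Ms4a4b and Ms4a6b 2.19 and 2.36 times, the adhesion molecule Emb 2.63 times, the focal adhesion protein Zyx 2.90 times and the copper chaperone Cox17 2.96 times. The small nuclear RNA gene Rn7sk was 4.16 times higher (2.48 to 6.95), although the libraries were made from polyadenylated RNA. Within the Cd8 group Klf6 (4.55 times), Tnfaip3 (5.23 times), Hspa1b (3.21 times), S100a6 (1.91 times), Ms4a4b (2.20 times) and Cox17 (3.43 times) were higher in Control too.

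**Figure D3:**
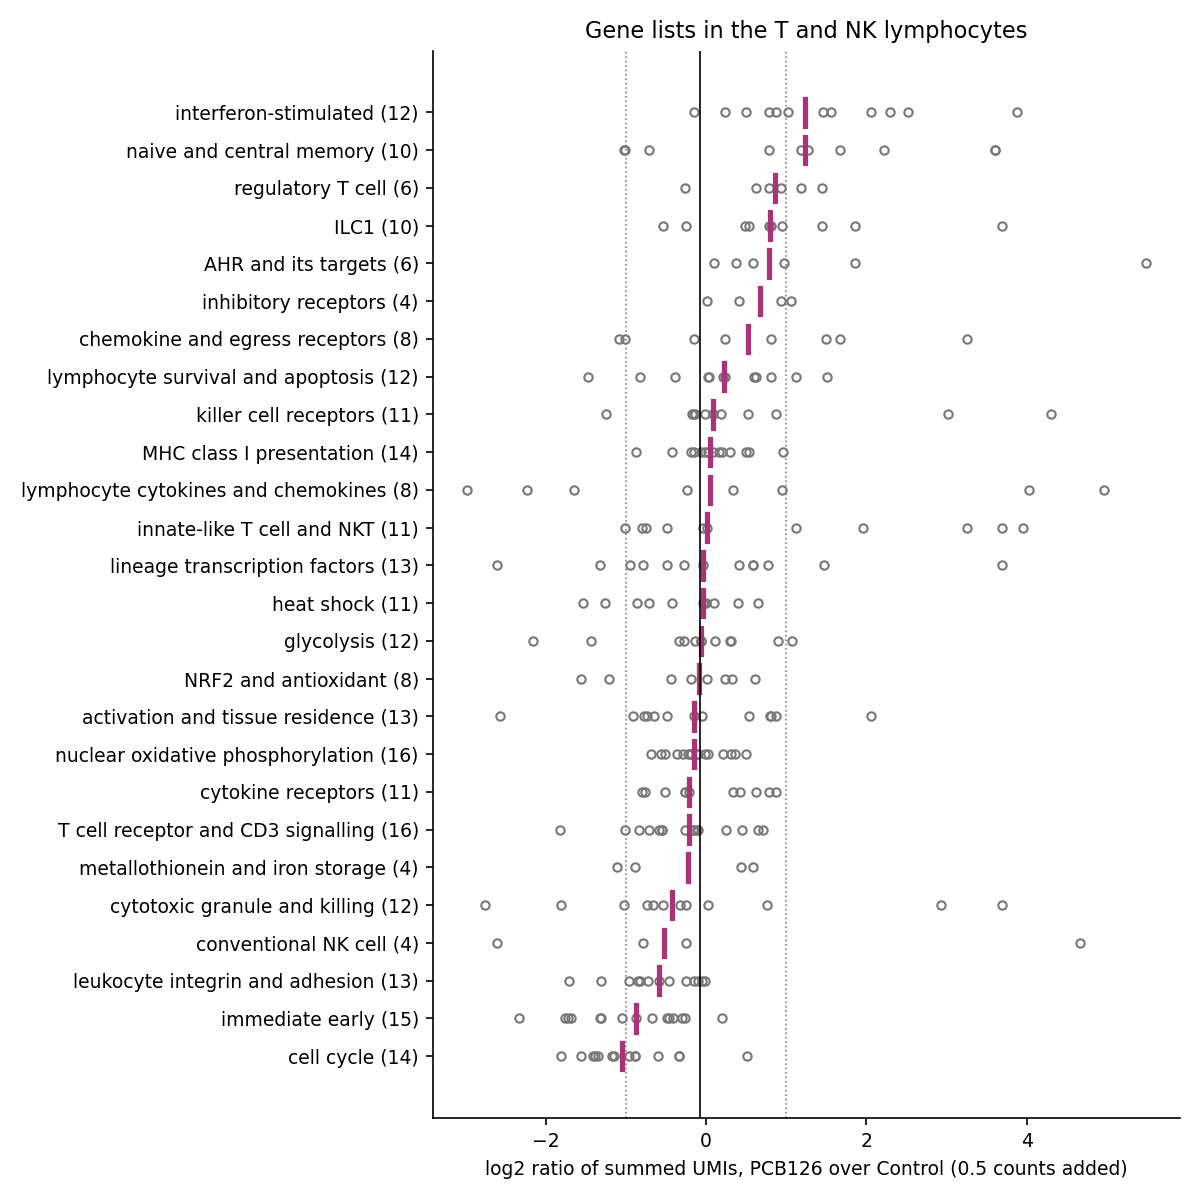
Log2 ratio of summed UMIs, PCB126 over Control, with 0.5 counts added (x axis), for the members of each gene list with at least 20 UMIs (circles, number in brackets). The thick bar is the list's median, the solid line the median over all 4576 genes (-0.08), and the dotted lines mark 2 times higher and lower. The interferon-stimulated list has the highest median, 1.24, and the cell cycle list the lowest, -1.05.

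Interferon-stimulated genes were higher in the PCB126 lymphocytes. Of the 19 genes in the list 12 were measured, 7 of them were more than 2 times higher and 0 more than 2 times lower, beside 9.31% and 8.78% of all genes. Their median log2 ratio was 1.24, or 1.15 with genes at 0 in Control set to their bound. The only such gene, Iigp1, is among the 7 higher ones. It was measured only through its PCB126 UMIs and could only be higher there. Irgm1 and Gbp2, also among the 7, were measured almost wholly through PCB126 UMIs. The list holds the signalling gene Irf9, antiviral effectors (Isg15, Bst2, Zbp1) and the GTPases of the IRG and GBP families, which interferon gamma induces strongly and which attack the vacuoles of intracellular pathogens. The upstream windows of 3 of these GTPase genes are shown here since all 3 were past 2 times higher and motifs of the interferon pathways lie in them. Each runs from 250 bases before to 50 bases after the RefSeq start (GRCm38.p6), 5′ to 3′ on the gene's strand. The Igtp window (chr11:58199306-58199605, plus strand) holds 1 GAS and 1 ISRE side by side, the Gbp2 window (chr3:142620413-142620712, plus strand) 1 ISRE on the opposite strand, and the Irgm1 window (chr11:48871371-48871670, minus strand) 2 overlapping ISRE copies. Capitals mark the gamma-activated site TTCNNNGAA (GAS) and the interferon-stimulated response element (ISRE), searched as GAAA, any 2 bases and GAAA again. Both were searched on both strands, and overlapping copies are joined in the capitals.
Igtp: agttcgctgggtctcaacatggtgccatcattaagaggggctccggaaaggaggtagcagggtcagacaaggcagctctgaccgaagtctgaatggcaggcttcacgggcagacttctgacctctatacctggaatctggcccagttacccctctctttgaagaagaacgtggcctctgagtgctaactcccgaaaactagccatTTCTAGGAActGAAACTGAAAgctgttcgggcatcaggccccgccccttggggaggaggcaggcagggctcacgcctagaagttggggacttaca
Gbp2: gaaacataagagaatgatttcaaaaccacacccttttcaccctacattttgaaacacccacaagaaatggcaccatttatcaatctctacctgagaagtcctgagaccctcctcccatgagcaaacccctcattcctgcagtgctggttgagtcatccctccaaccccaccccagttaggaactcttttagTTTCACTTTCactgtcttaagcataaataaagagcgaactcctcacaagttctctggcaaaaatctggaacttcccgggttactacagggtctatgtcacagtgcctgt
Irgm1: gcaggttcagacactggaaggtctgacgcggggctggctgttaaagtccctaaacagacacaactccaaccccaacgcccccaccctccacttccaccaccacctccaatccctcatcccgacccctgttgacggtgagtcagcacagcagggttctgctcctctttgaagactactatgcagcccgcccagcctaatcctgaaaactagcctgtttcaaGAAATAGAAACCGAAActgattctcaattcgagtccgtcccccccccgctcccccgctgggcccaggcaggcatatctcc

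Of the 12 measured genes of the list 9 had a window among 32851, and 6 of the 9 held either motif, which 11.3% of all windows did (GAS in 8.30%, ISRE in 3.44%). All 5 genes past 2 times higher that had a window held one, as did 1 of the other 4. A match is a description of the letters and not evidence of binding.

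Igtp, an IRG GTPase encoded on chromosome 11, had 2 UMIs in 2 of 16 Control members and 67 UMIs in 31 of 70 PCB126 members, 7.13 times higher (1.90 to 60.1). Irgm1, which controls the other IRG proteins, had 1 and 29 UMIs, and Gbp2, a guanylate-binding protein, 1 and 34. Iigp1 had 0 and 34 UMIs (at least 2.41-fold higher), 29 of the 34 in the Cd4 group and 24 in 1 cell. Bst2, which tethers budding viruses, had 5 and 76 UMIs (3.23 times, 1.33 to 10.2). Isg15, a ubiquitin-like modifier, had 5 and 52 UMIs (2.21 times, 0.890 to 7.10), an interval that includes equal levels. Gbp7, at 18 and 78 UMIs, had a log2 ratio of -0.15.

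The difference was not seen in the Cd8 group. The list summed to 651 CPM in Control and 1201 in PCB126 over all members, but to 576 and 606 CPM in the Cd8 group. Igtp there stood at 23.1 and 24.5 CPM, over only 6 UMIs. Igtp reached 124 CPM in the PCB126 Cd4 group and 140 CPM in the cells with neither co-receptor. A few cells carried much of the total, as 11 PCB126 members and 1 Control member exceeded 2000 CPM, and the 3 highest cells held 28.6% and 44.3% of the list's UMIs. Without those 3 cells in each library the sums were 556 and 886 CPM, and the median member stood at 490 and 699 CPM. The type I interferon gene Ifit1 went the other way, with 14 UMIs in 1 Control cell and 4 in PCB126, too few to be measured here. In the other cells of the libraries the median log2 ratio of the list was 1.28 in B cells, 1.52 in neutrophils and 0.40 in endothelial cells.

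**Figure D4:**
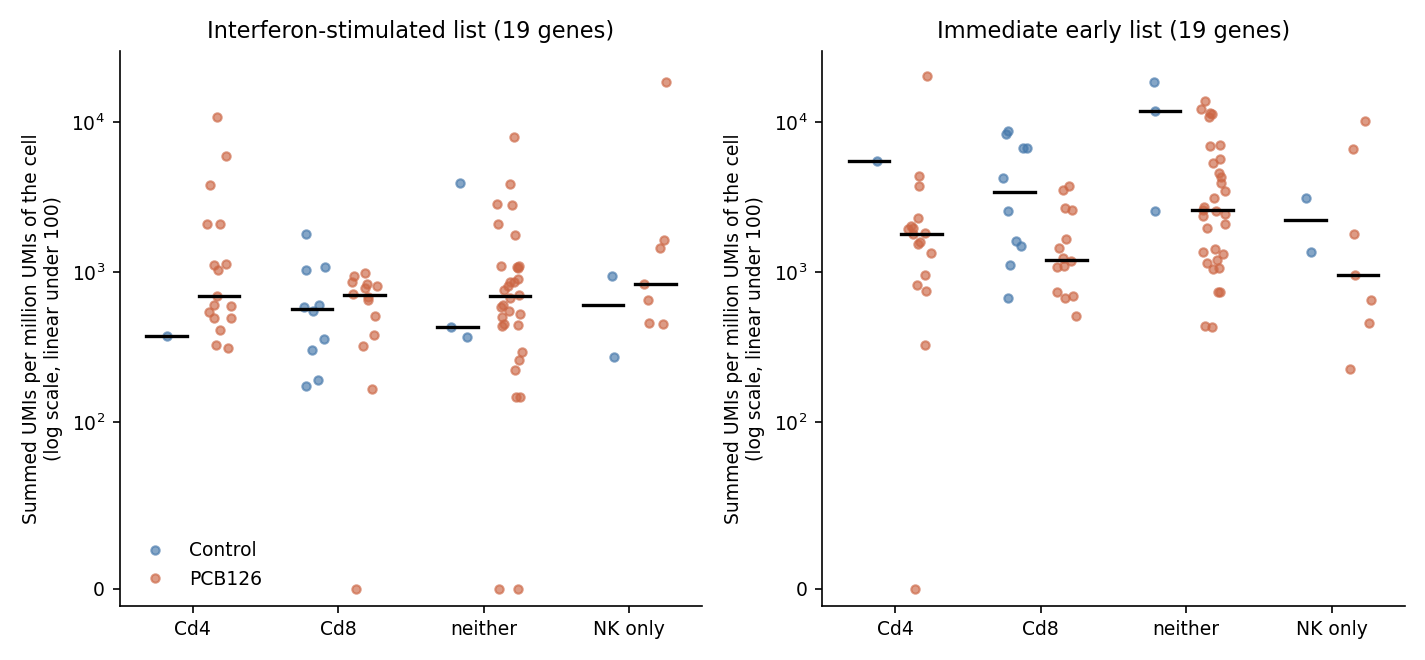
Summed UMIs per 1000000 UMIs of the cell (y axis, log scale, linear under 100) of the interferon-stimulated list (left) and the immediate early list (right) in each member, by group, for Control (blue) and PCB126 (red), with group medians as bars. For interferon-stimulated genes the Cd8 groups overlap and 11 PCB126 cells exceed 2000. For immediate early genes the libraries overlap in the Cd8 group and in the cells without a co-receptor, and the Control cells without a co-receptor reach 18537.

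Immediate early genes, which cells switch on within minutes of a stimulus, were lower in PCB126. Of 19 genes 15 were measured, 7 were more than 2 times lower and 0 more than 2 times higher, beside 8.78% and 9.31% of all genes, and the median log2 ratio was -0.87. Fos, a subunit of the AP-1 factor, had 60 UMIs in 8 of 16 Control members and 56 in 16 of 70 PCB126 members, 5.03 times higher in Control (3.44 to 7.38). Nfkbia, the inhibitor of NF-kappaB, was 2.48 times higher in Control (1.88 to 3.26), and Junb, another AP-1 subunit, 1.82 times (1.39 to 2.36). Jund, at 60 and 326 UMIs, did not share this direction (log2 ratio 0.20).

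Within the Cd8 group the median of 11 genes was -1.48, and 8 of them were more than 2 times lower in PCB126, beside 7.92% of all genes there. The same 11 genes had a median of -0.87 over all members, and the 2 medians were not tested against each other. Fos was nearer in the Cd8 group, with 27 and 25 UMIs (2.03 times higher in Control, 1.14 to 3.65). There Junb stood at 403 and 85.7 CPM, Klf6 at 669 and 147 CPM and Nfkbia at 323 and 104 CPM, while Jun was level at 265 and 257 CPM. The list as a whole summed to 4196 CPM in Control and 1941 in PCB126 in that group. The median member stood at 3704 and 1815 CPM, and without the 3 highest cells the sums were 4199 and 2316. These genes are very high in neutrophils (29128 CPM in Control, 53986 in PCB126), whose marker list was 207 and 37.8 CPM in the members, and the part of neutrophil RNA in this difference was not tested. The median of the list was -0.49 in B cells, 0.87 in neutrophils and -0.09 in endothelial cells.

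Genes of naive and central memory T cells were higher in PCB126, with 6 of 10 more than 2 times higher and 2 more than 2 times lower, beside 9.31% and 8.78% of all genes. Of the 6 higher genes, 2 had no UMI in Control. Those were measured only through their PCB126 UMIs and could only be higher there. The median log2 ratio was 1.23, or 0.99 with genes at 0 in Control at their bound. The direction depended on the mitochondrial limit, since at 10% the median was -0.052. Lef1, which with Tcf7 maintains naive T cells, had 3 and 76 UMIs (5.39 times, 1.78 to 26.7) and was found in 28 PCB126 members. Tcf7 had 11 and 122 UMIs (2.36 times, 1.27 to 4.85), and Satb1, a chromatin organiser, 12 and 142 (2.52 times, 1.40 to 4.99). Ccr7, the lymph node homing receptor, had 1 and 22 UMIs and lay only in Cd4 cells (4) and Cd8 cells (6) of PCB126 and in 1 Cd8 cell of Control. S1pr1, the egress receptor, and its regulator Klf2 were the genes on the lower side, with log2 ratios of -1.01 and -1.02.

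In the Cd8 group the median of 7 such genes was 1.11, and 4 were more than 2 times higher in PCB126, beside 6.57% of all genes there. Lef1 there stood at 23.1 and 202 CPM, Il7r at 57.6 and 410 CPM and Tcf7 at 115 and 325 CPM.

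Cytotoxic genes did not move together. Of 12 measured, 2 were more than 2 times higher and 3 more than 2 times lower in PCB126, beside 9.31% and 8.78% of all genes, with a median log2 ratio of -0.43. Gzma had 14 UMIs in 3 Control members and 519 in 11 PCB126 members, but 302 of these lay in a single cell that also held Trdc and Cd8a. Tnfsf10, encoding the death ligand TRAIL, had 0 and 30 UMIs, the latter in 21 members, at least 2.13-fold higher. It was also seen in 36.8% of the PCB126 endothelial cells (9.60% thinned), against 30% of the members (10% thinned). Gzmk, a granzyme of memory CD8 T cells, was 6.83 times higher in Control (2.98 to 16.3). Gzmb had 55 UMIs in 11 of 16 Control members and 165 in 17 of 70 PCB126 members, 1.57 times higher in Control (1.13 to 2.14), and 3.40 times within the Cd8 group (2.07 to 5.72). Members of at least 2 Mki67 UMIs held 43 of the 55 and 29 of the 165 Gzmb UMIs, and without them the direction turned, to a log2 ratio of 0.74. Perforin (Prf1) was at 88.7 and 77.1 CPM and Nkg7 at 1102 and 885 CPM.

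Of 8 cytokine genes measured, 2 were more than 2 times higher and 3 more than 2 times lower in PCB126. The 2 higher were Il4 and Csf2, both at 0 UMIs in Control, which reached the 20 UMIs only through PCB126. Over all genes the shares were 9.31% and 8.78%, and the list's median was 0.05. At most 10% mitochondrial UMIs turned this median to 2.54. Ccl4 and Ccl3, chemokines of activated killer cells, were 7.92 and 4.70 times higher in Control (5.13 to 12.4 and 1.85 to 12), with 44 of the 59 Control UMIs of Ccl4 in 1 cell. Ifng, interferon gamma itself, had 60 UMIs in 8 Control members and 90 in 20 PCB126 members, 3.13 times higher in Control (2.22 to 4.39). Without members of at least 2 Mki67 UMIs its log2 ratio was 1.54. These 5 Control members held 56 of the 60 Control UMIs of Ifng, and the 10 PCB126 members 5 of the 90. Ccl5 was the most abundant cytokine in both libraries, at 4016 and 3408 CPM, and was seen in 15 of 16 and 58 of 70 members.

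Proliferating cells weighed on both libraries. Mki67, a protein of dividing nuclei, reached at least 2 UMIs in 5 Control members, which held 51.4% of the Control UMIs, and in 10 PCB126 members, which held 32.4%. The 5 Control cells were 4 Cd8 cells and the 1 Cd4 cell, and the 10 PCB126 cells were 4 Cd4 cells, 4 Cd8 cells and 2 with neither co-receptor. All 14 genes of the cell cycle list were measured, 7 were more than 2 times lower in PCB126 and 0 more than 2 times higher, beside 8.78% and 9.31% of all genes, and the median log2 ratio was -1.05. In the Cd8 group the median was -0.16, and Mki67 stood at 450 and 404 CPM. The 3 highest cells held 77.9% of the list's UMIs in Control and 47.6% in PCB126.

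Ahr, Cyp1a1, Nqo1 and Ahrr were at 0 UMIs in the Control lymphocytes. Ahr itself had 0 UMIs in Control and 15 in 11 of 70 PCB126 members. Cyp1a1, a cytochrome P450 that AHR activates, was found in 0 of 16 Control members, which by 3 counts allows a share of cells with a UMI of up to 18.75%, and in 16 of 70 PCB126 members (22.9%, 13.7 to 34.4%), or 4 (5.71%) after thinning to 1000 UMIs. It summed to 105 UMIs, 165 CPM, but 14 of the 16 cells held only 1 or 2 UMIs each. The other 2 held 64 and 22, and these were the cells with 126 and 61 UMIs of endothelial genes. In the endothelial cells of the same library Cyp1a1 was found in 98.6% (92.0% thinned) at 4819 CPM, in Control endothelial cells in 24.4% at 174 CPM.

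B cells and neutrophils of the same library served as the comparison for free RNA, although B cells can also express AHR. Cyp1a1 was found in 3 of 63 PCB126 B cells (4.76%, 3.17% thinned) and in 10 of 85 neutrophils (11.8%, 3.53% thinned), whose median depths were 5497 and 3958 UMIs against 6863 in the lymphocytes. In the PCB126 B cells Cyp1a1 summed to 95 UMIs, 58 of them in 1 cell, or 187 CPM, which was above the CPM of the lymphocytes. At full depth it was found in 16 of 70 PCB126 lymphocytes. After thinning these were 4 lymphocytes, 2 B cells and 3 neutrophils, too few cells to set the cell types apart. The source of the Cyp1a1 UMIs in lymphocytes was not tested. Members with Cyp1a1 were deeper (median 9278.5 UMIs) than those without (6484.5), and 14 of the 16 also held endothelial UMIs. The median of endothelial list UMIs was 2 in members with Cyp1a1 and 0.5 in those without. Of the other targets, Xdh (xanthine dehydrogenase) had 1 and 25 UMIs (5.32 times, 0.871 to 218), Nqo1 0 and 2, the repressor Ahrr 0 and 3, and Tiparp 8 and 11, which is 59.2 and 17.3 CPM. Over the list, 2 of 6 measured genes (Cyp1a1 and Xdh) were more than 2 times higher and 0 lower, beside 9.31% and 8.78% of all genes, with a median of 0.78. Cyp1a1 had no UMI in Control, so it was measured only through its PCB126 UMIs and could only be higher there. The interval of Xdh includes equal levels. Tiparp, which was lower in PCB126 by CPM, had too few UMIs to be measured and is not in these counts. The list summed to 2219 CPM in Control and 2679 in PCB126, of which 1967 and 2117 CPM were Hsp90ab1, a chaperone that holds unbound AHR.

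**Figure D5:**
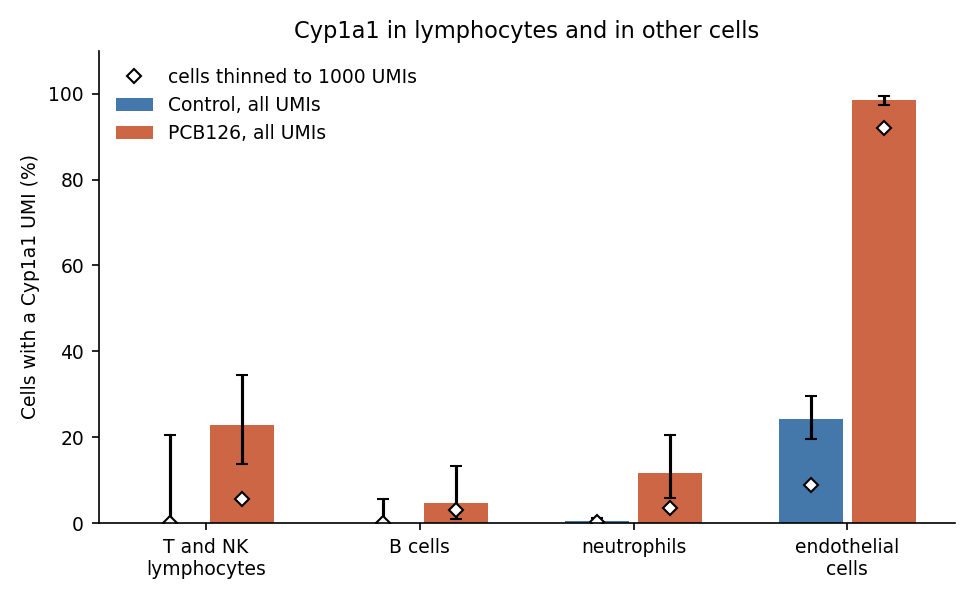
Share of cells with at least 1 Cyp1a1 UMI (y axis, %) in T and NK lymphocytes, B cells, neutrophils and endothelial cells of Control (blue) and PCB126 (red). Bars use all UMIs with exact 95% binomial intervals for counting error, and diamonds give the share after thinning each cell to 1000 UMIs. PCB126 lymphocytes fall from 22.9% to 5.71% on thinning, near B cells and neutrophils, while endothelial cells stay at 92.0%.

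Counts in the remaining lists stand beside 9.31% of all genes more than 2 times higher and 8.78% more than 2 times lower. A gene at 0 in Control reaches the 20 UMIs only through PCB126 and is then always higher there, so such genes are named. The regulatory T cell list had a median of 0.86, with 2 of 6 more than 2 times higher, and the median was -0.27 without members of at least 2 Mki67 UMIs. The ILC1 list had a median of 0.80, with 3 of 10 more than 2 times higher (Tnfsf10, at 0 in Control, Inpp4b and Ikzf2). Of 11 genes of innate-like T and NKT cells, 5 were more than 2 times higher (Zbtb16, Trdc, Slamf6 and the gamma chain genes Tcrg-C2 and Tcrg-C4) and 1 lower, and their median was 0.01. Of these 5, Zbtb16, Trdc and Tcrg-C4 were at 0 in Control. The T cell receptor and CD3 signalling list had a median of -0.21, with 0 of 16 higher and 2 lower, one of which was the co-stimulatory receptor Cd28 (3.54 times higher in Control, 2.59 to 4.81). Among 8 killer cell receptors outside the gates 1 was higher, Klra9, at 0 and 46 UMIs, and 1 was lower, with a median of 0.14. Leukocyte integrins and adhesion genes had a median of -0.59, 0 of 13 higher and 2 lower, and all 13 log2 ratios were below 0.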

How the data were processed

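Each library was made with the 10x Genomics 3′ kit, per the labels' protocols, and deposited as a matrix of unnormalised UMI counts beside its lists of genes and barcodes, written by the authors' Cell Ranger run (6.0.0 per the file headers, 6.1.1 with Seurat 4.0.1 per the submitters' processing notes). For the genome build behind the counts, nothing is given in the sources used here. The barcode and gene lists deposited by the authors hold names only, with no measurement.

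The members, groups and the 27 gene and 19 marker lists were chosen with earlier results of these data known. Counts were summed over the members of a library. Shares carry exact Clopper-Pearson intervals, levels exact Poisson intervals and ratios conditional binomial intervals, at 95%. Genes needed 20 UMIs over both sums, log2 ratios used 0.5 added counts, and a sum of 0 was set to 3 counts for a bound. UMI counting removes PCR copies, but intervals cover counting error only. The text names, among genes with at least 50 UMIs, seen in at least 20% of the members where higher and with at most 25% of UMIs in 1 cell, the 12 in each direction whose near interval bound was farthest from 1 (8 between groups), leaving out mitochondrial, ribosomal, receptor segment, gate and other cells' marker genes, plus list members by UMIs. A few list members count in the list values but are not reported here by name. Other cells were B cells (at least 3 UMIs of Cd79a and Ms4a1), neutrophils (at least 30 of S100a8 and S100a9) and endothelial cells (at least 5 of Stab2, Clec4g, Kdr and Ptprb), outside both gates. Doublets were scored with Scrublet in scanpy 1.11.5 and left out only as an alternative. Numbers were computed in Python 3.11.15 with numpy 2.4.6, scipy 1.17.1 and pandas 2.3.3, after the counting code had been tested on simulated data. Gene positions matched GENCODE M21 for 34049 of 34244 identifiers.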

Additional observations from a re-analysis of the deposited data

Results flagged for a closer look

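Lymphocyte barcodes were also found outside the limit of 20% mitochondrial UMIs. In the PCB126 library 15 of the 1216 barcodes between 20% and 50% (1.23%) met the gates, and in Control 0 of 370 did, which allows up to 0.811%. These 15 barcodes had a median of 3723 UMIs (1083 to 7459), 1256 genes and 26.1% mitochondrial UMIs (20.6 to 47.0%). By co-receptor, 5 were in the Cd4 group, 5 in the Cd8 group, 3 had neither and 2 were in the NK gate only. Il7r was seen in 11 of them, Lef1 in 6, Ccl5 in 6, Cxcr6 in 5 and Foxp3 in 2. They enter no comparison above other than the PCB126 share under the wider limit.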

How the results depend on the processing

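Over 17 settings, 14 planned and 3 chosen after seeing the data, 1020 values of 72 results were recomputed. Of the values for shares, groups and lists 373 kept their direction and size, 15 moved and 2 reversed, and of those for single genes 549, 76 and 5.
With at most 10% mitochondrial UMIs the PCB126 Cd8 group was 32% of members, the naive list median -0.052 and the cytokine list median 2.54. With up to 50% the PCB126 share was 3.59%.
Thinning to 1000 UMIs before the gates gave an NK gate of 25% of Control members, and in PCB126 a share of 4.54% of cells with groups of 5.77% (Cd4), 7.69% (Cd8), 69.2% (neither) and 19.2% (NK gate), and an Ikzf2 log2 ratio of -0.27. Without members that held other cells' markers (4 of 16 and 14 of 70) the regulatory T cell list was 0.12. With no minimum of UMIs the innate-like list was 1.12.
Of the settings chosen later, leaving out members with at least 2 Mki67 UMIs gave -0.27 for the regulatory T cell list and for Ikzf2, and 1.54 for Ifng. The Cd8 group alone gave -1.48 for immediate early, -0.16 for cell cycle, -0.67 for heat shock and 1.73 for innate-like genes, -0.065 for Igtp and -3.23 for Maf. Leaving out the cell with the most UMIs of each library reversed no value. Doublet filtering left out 0 Control members and 1 PCB126 member. The causes were not tested.
The share of lymphocytes in PCB126 over that in Control ranged from 5.07 to 8.23 over its settings, and the interferon-stimulated median from 0.88 to 1.5.
No paired analysis was possible because each group is 1 library. With 16 Control members, a gene at 0 there allows, by 3 counts, UMIs in up to 18.75% of such cells, which does not limit the share that express it, and the 3 highest cells of a list can decide its sum.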

Other observations

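Antigen presentation genes of the lymphocytes differed little over all members. Of 14 MHC class I genes 0 were more than 2 times higher or lower in PCB126, beside 9.31% and 8.78% of all genes, with a median log2 ratio of 0.05. B2m, the light chain of class I molecules, stood at 2337 and 2484 CPM in Control and PCB126. H2-K1 and H2-D1, the classical heavy chains, had log2 ratios of 0.29 and 0.20. The immunoproteasome subunit Psmb10 was the highest at 0.96 and the peptide loading factor Tapbp the lowest at -0.87. In the Cd8 group 2 of 13 were more than 2 times lower, beside 7.92% of all genes there, 11 of 13 were below 0 and the median was -0.42. In endothelial cells all 14 were above 0, with a median of 0.75, beside -0.02 over all their genes. In neutrophils of the same libraries all 14 genes of this list were above 0, with a median of 0.98, beside 0.03 over all their genes.

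Energy metabolism differed little between the libraries. Over all genes 9.31% were more than 2 times higher and 8.78% more than 2 times lower, which stands beside each count here and in the paragraphs that follow. Of 16 nuclear genes of oxidative phosphorylation 0 were past 2 times in either direction (median -0.15), and of 12 glycolytic genes 1 was higher and 2 were lower (median -0.06). The glucose transporter Slc2a3, at 19 and 20 UMIs, had a log2 ratio of -2.16. The antioxidant list had a median of -0.09, with 2 of 8 lower, Txnrd1 (-1.21) and Gsr (-1.56), and the metallothionein and iron list -0.23 over 4 genes.

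Among transcription factors of lymphocyte lineages 2 of 12 outside the gates were higher (Zbtb16, at 0 in Control, and Maf) and 1 lower (Runx3), with a median of 0.19. Tbx21, encoding T-bet, was level at 66.6 and 67.7 CPM, and Gata3 was 1.91 times higher in Control (1.14 to 3.12). Irf8, a factor of NK cells and of dendritic cells, had 0 UMIs in Control and 59 in PCB126. It belongs to the conventional NK cell list, of which 3 genes outside the gates were measured (median -0.25, 1 higher and 0 lower).

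Chemokine and egress receptors had a median of 0.52, or 0.44 with the gene at 0 in Control, Ccr9, at its bound. Of 8 genes 3 were higher, Ccr7 and Ccr9 among them, and 2 lower, with S1pr1 and S1pr4 on that side. Ccr9 was measured only through its 22 PCB126 UMIs, 15 of them in 1 cell, and could only be higher there. It also served as a marker gene of plasmacytoid dendritic cells. Cytokine receptors had 0 of 11 past 2 times in either direction (median -0.21). Survival genes had a median of 0.23, with the anti-apoptotic Bcl2l1 (2 and 33 UMIs) and Bcl2a1b (12 and 127 UMIs) among the higher of 12. Inhibitory receptors had a median of 0.68 over 4 genes, 1 of them higher. Activation and tissue residence genes had a median of -0.15 over 13, with Prdm1 (1 and 29 UMIs) higher and Nr4a1, a gene induced by receptor signalling, 5.98 times higher in Control (3.70 to 9.74). The heat shock list had a median of -0.04, with Hspa1a and Hspa1b lower among 11. Of the type 17 list, Il17a, Il17f, Il23r and Blk were at 0 in both libraries, and 3 of 12 genes were measured.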
